A study of Mus musculus with 2 samples.

Results

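The mouse genes Mir199a-1, Mir199a-2, Mir199b and Mir214 make small regulatory RNAs that are known mostly from mesenchymal cells, such as fibroblasts and the cells of developing connective tissue. They were chosen by name, as the 4 genes so called in GENCODE M21 among the 2202 microRNA genes counted, and all 4 have a row in both libraries. The libraries are microRNA sequencing of RNA below 30 nt from whole hearts of B6CASTF1/J mice, a hybrid strain, all females at 4 days of age. They form 1 group of 2, with no treatment named: animal 3 gave replicate 1, animal 4 gave replicate 2, and both carry the same donor entry. Heart tissue was not sorted, so no value here separates cell types, and fewer cells of a type cannot be told apart from less RNA per cell.

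A microRNA gene is transcribed into a long precursor, from which a hairpin is excised and then diced into a 5p and a 3p arm. The arm that is loaded into the silencing complex pairs with messenger RNAs mainly through its seed, bases 2 to 8. Mir199a-2 and Mir214 are carried by the noncoding transcript Dnm3os, which lies antisense within the dynamin gene Dnm3 and is known as a target of the mesenchymal factor Twist1. Mir199a-1 and Mir199b lie antisense within the related dynamin genes Dnm2 and Dnm1. In the heart, miR-214 is known for restraining calcium handling through the sodium-calcium exchanger, miR-199a-5p for repressing the hypoxia factor Hif1a, and miR-199a-3p for promoting proliferation of cardiomyocytes.

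The mature arms decide which of these RNAs a count can measure, so they are shown first, with the seed in capitals (RefSeq, GRCm38.p6, which is mm10). All 4 genes matched that table, and its entries for them give 5 arm names with 4 distinct seeds and sequences:
miR-199a-5p: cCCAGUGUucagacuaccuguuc
miR-199a-3p: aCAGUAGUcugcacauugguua
miR-199b-3p: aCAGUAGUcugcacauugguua
miR-214-5p: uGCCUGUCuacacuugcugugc
miR-214-3p: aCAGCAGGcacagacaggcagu
The 3p arms of the Mir199 genes are the same 22 bases and occur in 3 hairpins, Mir199a-1, Mir199a-2 and Mir199b. The 5p arm miR-199a-5p occurs in 2 hairpins, Mir199a-1 and Mir199a-2. Each arm of Mir214 occurs in 1 hairpin of the 2202. Reads that mapped to several places are in no gene's count, so any such reads from the identical arms are missing for the Mir199 genes, and the counts below cannot give the amount of miR-199a-5p or of the shared 3p arm. How many multi-mapped reads came from these arms was not measured.

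The hairpins are shown with the RefSeq arms in capitals, because the bases outside the arms are what tells the Mir199 genes apart:
Mir199a-1: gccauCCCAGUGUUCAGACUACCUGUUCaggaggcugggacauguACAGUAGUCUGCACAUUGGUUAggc
Mir199a-2: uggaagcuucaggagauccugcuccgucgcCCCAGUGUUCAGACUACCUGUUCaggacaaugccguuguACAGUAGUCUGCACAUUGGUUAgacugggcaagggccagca
Mir199b: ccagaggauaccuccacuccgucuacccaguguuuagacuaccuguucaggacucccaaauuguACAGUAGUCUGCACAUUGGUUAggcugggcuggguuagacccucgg
Mir214: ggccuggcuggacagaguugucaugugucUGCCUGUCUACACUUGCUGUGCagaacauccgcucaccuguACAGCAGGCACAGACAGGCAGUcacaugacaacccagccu
The 5′ side of the Mir199b hairpin has no arm in the table, which holds no entry for miR-199b-5p. Its closest match to miR-199a-5p, bases 26 to 48 of the hairpin, is identical at 22 of 23 bases and differs by C10U, counted from the 5′ end of miR-199a-5p. That stretch reads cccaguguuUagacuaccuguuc, with the differing base in capitals, and the difference lies outside the seed.

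In mm10, Mir199a-2 (ENSMUSG00000070126.1) lies on chromosome 1 at 162217814 to 162217923 and Mir214 (ENSMUSG00000065516.1) at 162223368 to 162223477, both on the plus strand and 5445 bp apart. Of the 6 annotated transcripts of Dnm3os, 2 are unspliced and hold both hairpins within an exon. In the spliced isoform 4, the last exon ends at base 162223393, 4 bases before miR-214-5p begins, and in isoforms 3 and 4 the first exon ends at base 162217900, on base 18 of miR-199a-3p. Mir199b (ENSMUSG00000092807.1) lies on chromosome 2 at 32318460 to 32318569, on the plus strand, in introns of Dnm1 on the minus strand. Mir199a-1 (ENSMUSG00000065547.1) lies on chromosome 9 at 21496495 to 21496564, on the minus strand, in introns of Dnm2 on the plus strand.

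**Figure D1:**
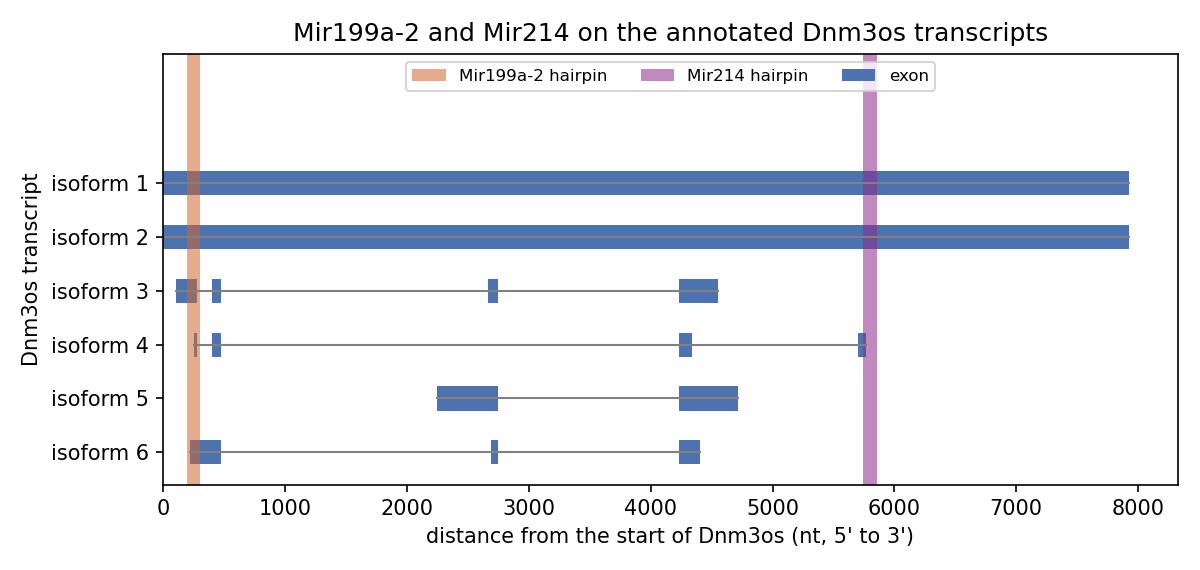
Exons (blue blocks) of the 6 annotated Dnm3os transcripts against distance from the start of Dnm3os in nt, with the hairpins as vertical bands. The unspliced isoforms 1 and 2 span both hairpins, whereas isoform 5 overlaps neither.

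To see how much of each hairpin could give a read of its own, every 20-nt stretch was looked up in all 2202 microRNA hairpins on both strands. All 91 stretches of Mir214 occurred in no other microRNA gene. Mir199b held 81 of 91 such stretches, Mir199a-2 held 75 of 91 and Mir199a-1, whose annotated hairpin has 70 nt against 110 nt for the others, held 34 of 51. The shared stretches all came from within the Mir199 genes. The longest run of identical bases was 27 nt between Mir199a-1 and Mir199a-2, 28 nt between Mir199a-1 and Mir199b, 27 nt between Mir199a-2 and Mir199b, and 7 nt between Mir214 and any of them on the same strand.

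For reads that begin at or near an arm, the 22-nt windows starting up to 2 nt from the arm's annotated start were counted. Mir214 had 5 of 5 windows of its own for either arm. Mir199b had 0 of 5 at its 3p arm but 5 of 5 at the stretch that matches miR-199a-5p with 1 difference. Mir199a-2 had 2 of 5 at its 5p arm and 1 of 5 at its 3p arm, and Mir199a-1 had 2 of 5 and 0 of 5. Sequence outside the annotated microRNA hairpins was not searched for these windows.

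**Figure D2:**
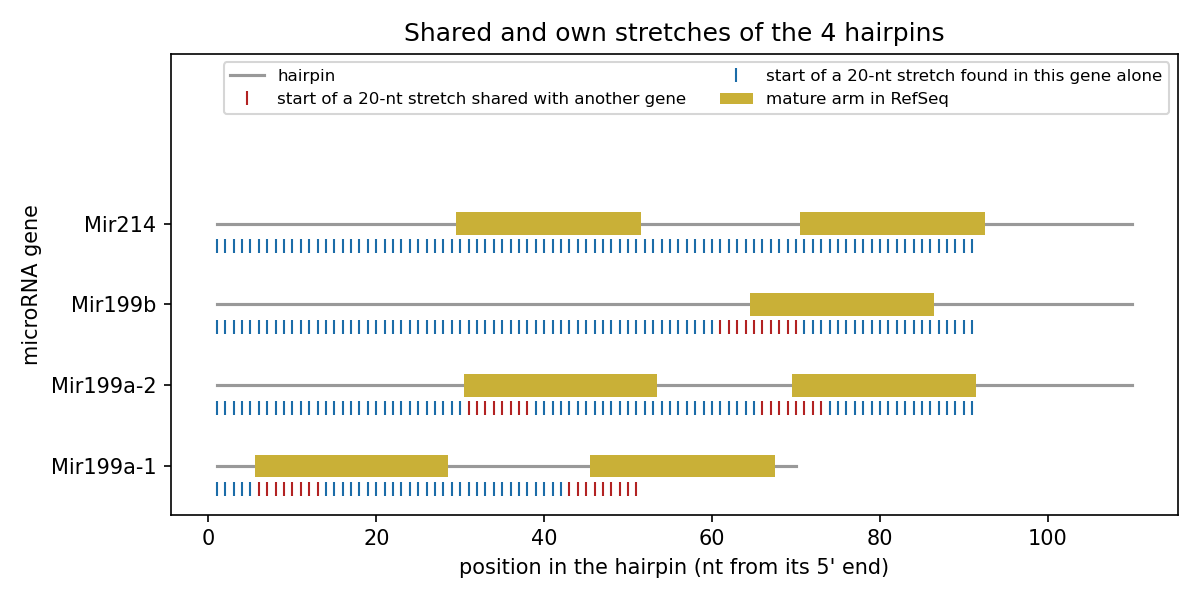
Position along each hairpin in nt from its 5′ end, with RefSeq arms as yellow blocks and 1 tick at the start of every 20-nt stretch, blue where no other microRNA gene holds it and red where another does. Red ticks lie at the arms of the Mir199 genes, and Mir214 has none.

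Mir214 was the 1 abundant gene of the 4. It had 35903 counts in replicate 1 and 16809 in replicate 2, which is 5595 and 2969 CPM, own-strand counts scaled to the library's total (mean 4282 ± 1857 CPM, SD, n = 2). It ranked 35th of 2202 genes in replicate 1 and 48th in replicate 2. Both libraries hold it in quantity, and the higher value is that of replicate 1.

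The Mir199 genes had few counts of their own. Mir199b had 260 counts in replicate 1 and 239 in replicate 2, or 40.5 and 42.2 CPM (mean 41.4 ± 1.20 CPM, SD, n = 2). Mir199a-2 had 134 and 129 counts, or 20.9 and 22.8 CPM (mean 21.8 ± 1.34 CPM). Their ranks were 214th and 211th for Mir199b, and 256th and 239th for Mir199a-2.

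Mir199a-1 had 0 counts in both libraries. A count of 0 allows up to 3 counts, which is 0.467 CPM in replicate 1 and 0.530 CPM in replicate 2. Against that floor per library, Mir199a-2 was at least 44.7-fold higher in replicate 1 and at least 43.0-fold higher in replicate 2. These bounds concern reads that map to 1 place, since the arms of Mir199a-1 are identical to those of Mir199a-2.

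**Figure D3:**
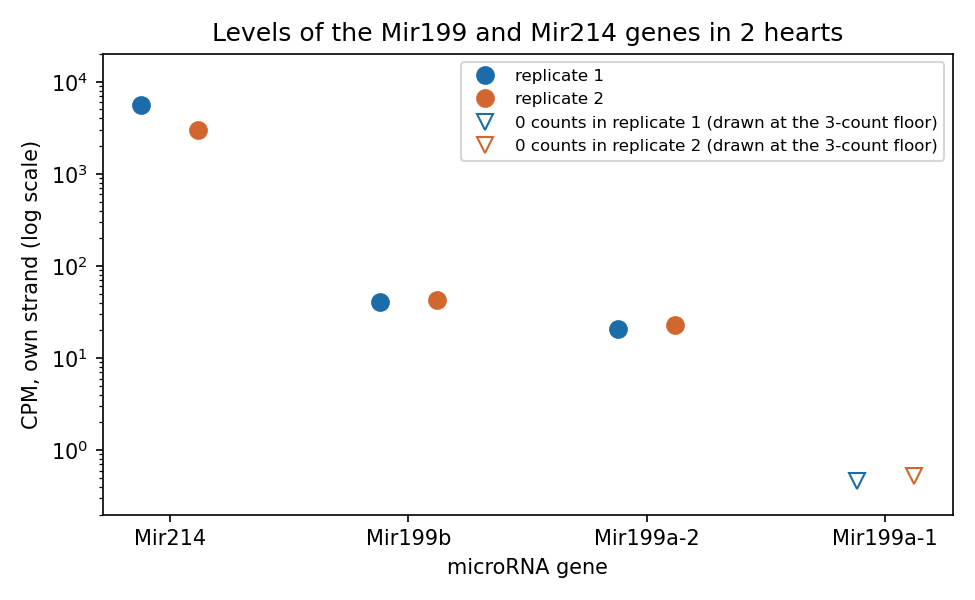
CPM of the 4 genes on a log axis, 1 filled point per library. Mir199a-1, with 0 counts, is drawn as an open triangle at the level of 3 counts (0.467 and 0.530 CPM). The order Mir214, Mir199b, Mir199a-2, Mir199a-1 is the same in both libraries.

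No neighbours in this order overlapped between the libraries. The lower Mir214 value, 2969 CPM, lay above the higher Mir199b value, 42.2 CPM, and the lower Mir199b value, 40.5 CPM, lay above the higher Mir199a-2 value, 22.8 CPM. With 2 libraries of 1 group, the order has no test. It concerns reads that map to 1 place, and the Mir199 genes differ in how many arm windows are their own. On the 5p side Mir199b had 5 of 5 such windows and Mir199a-2 had 2 of 5. On the 3p side they had 0 of 5 and 1 of 5. The part of these windows in the order was not tested. Summed, the 4 genes took 0.434% ± 0.185 of all counts (SD, n = 2). The share was 0.566% for replicate 1, with an exact 95% interval from 0.560 to 0.571, and 0.303% for replicate 2, from 0.299 to 0.308. Mir214 made up 98.9% of the 4 genes' counts in replicate 1 and 97.9% in replicate 2. The intervals cover counting error only, as each was taken within its own library. No molecular identifiers are named for these reads, so reads copied from the same molecule could not be told apart.

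Reads that mapped to several places numbered 5722879 in replicate 1 and 5835632 in replicate 2, and they are not assigned to genes in the files. All of Mir214's counts would equal 0.627% of them in replicate 1 and 0.288% in replicate 2. The order of Mir214 and the Mir199 genes therefore holds for reads assigned to 1 place, and whether the shared Mir199 arms lay above or below miR-214 was not measured.

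All counts at these genes lay on their own strand. The opposite strand had 0 counts at all 4 genes in both libraries. This was common, as 340 of the 373 genes with 10 or more own-strand counts in both libraries had none on the opposite strand (91.2%). For Mir214 the 0 counts allow an opposite-strand share of up to 0.00836% in replicate 1 and 0.0178% in replicate 2. For Mir199b they allow up to 1.15% and 1.26%, and for Mir199a-2 up to 2.24% and 2.33%. Within 10 kb of a member on either strand, the other annotated microRNA genes were Mir199a-2 and Mir214 themselves and Gm23363, 117 bp from Mir199b on the same strand (chromosome 2, 32318265 to 32318343), which had 7 counts in replicate 1 and 1 in replicate 2.

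Among all 1738 mature mouse sequences in the RefSeq table, 1 further microRNA carries the seed of a member. It is miR-761, with the seed of miR-214-3p in capitals:
miR-761: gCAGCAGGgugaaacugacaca
Its gene Mir761 was at 0 in either library, where Mir214 had 35903 and 16809 counts. The gene was looked up by its seed and lies outside the rule for named genes. As the RefSeq table has no entry for miR-199b-5p, that arm took no part in the search.

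The libraries of the 2 hearts were then compared gene by gene. This compares libraries, with counting noise as the only error, and has no replicate check. The log2 ratio of replicate 1 over replicate 2 was 0.61 for Mir214 (counting SE 0.01, 1.53-fold) on library sizes scaled by TMM, a scaling that centres the bulk of genes. It was −0.36 for Mir199b (counting SE 0.13) and −0.43 for Mir199a-2 (counting SE 0.18), which puts both slightly higher in replicate 2. Mir214 thus lay on one side of 0 and the Mir199 genes on the other.

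No member passed the call of an adjusted p under 0.05 together with a fold over 2. In the exact binomial test with Benjamini-Hochberg adjustment over 491 genes, the adjusted p was 0.0129 for Mir199b and 0.0376 for Mir199a-2. All 3 tested members had a fold under 2. Over all genes, 55 of 491 were called (11.2%). Replicate 1 had the higher value for 19 of them (3.87%) and replicate 2 for 36 (7.33%). EdgeR's exact test, whose dispersion was estimated from both libraries as 1 group, called 4 of 491 (0.815%) and 0 of the 3 members, with unadjusted p = 0.403 for Mir214, 0.629 for Mir199b and 0.579 for Mir199a-2.

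Scaling by total counts moves the median log2 ratio of all genes by 0.30. On that scale 39 genes were higher in replicate 1 and 22 in replicate 2, and the log2 ratio was 0.91 for Mir214, −0.06 for Mir199b and −0.13 for Mir199a-2. The signs stayed as before, and the adjusted p rose to 0.735 for Mir199b and 0.602 for Mir199a-2 (exact binomial test). Both libraries held 10 counts or more for 373 genes. Of these, 98 had a larger gap between the libraries than Mir214 on the TMM scale, 194 a larger one than Mir199b and 160 a larger one than Mir199a-2.

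**Figure D4:**
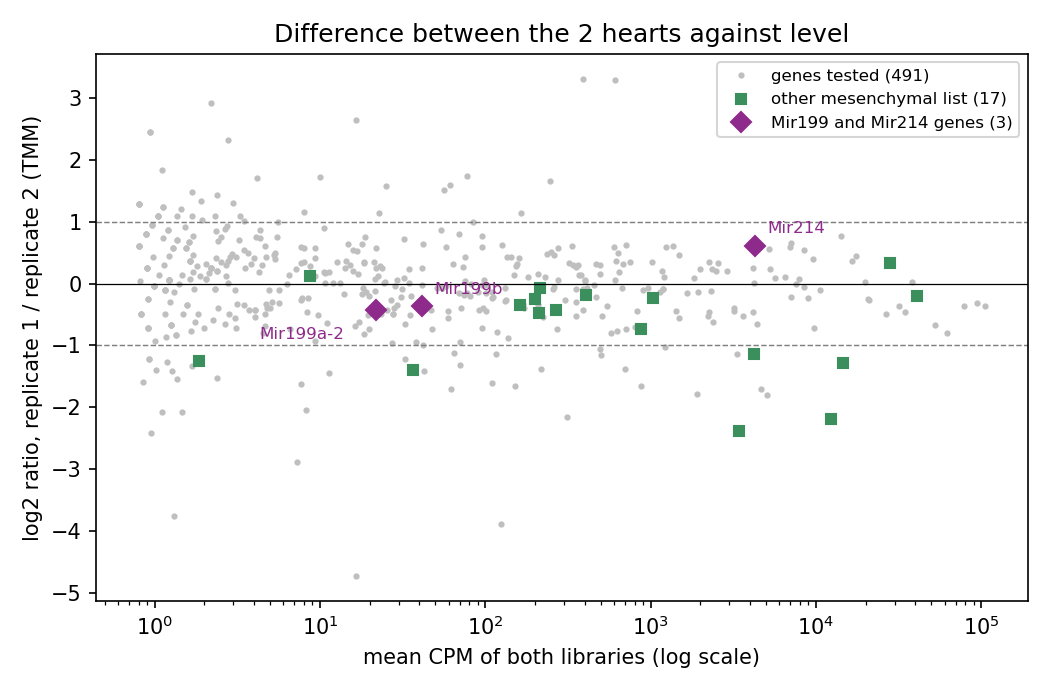
Log2 ratio of replicate 1 over replicate 2 (TMM scaling) against mean CPM on a log axis for the 491 genes tested (grey). Green squares are 17 listed genes known from fibroblasts or mesenchyme, though not particular to them. Purple diamonds are the 3 tested members, and dashed lines mark 2-fold. Mir214 lies at 0.61, above all green squares, of which 15 sit below 0, and Mir199b and Mir199a-2 lie at −0.36 and −0.43.

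Ratios between genes within a library do not depend on its scaling. Compared between the libraries, each restates the difference of its genes' log2 ratios, so the split was bound to recur. Intervals and p-values of all 11 pairs cover counting error alone and do not measure variation between hearts. Any multi-mapped reads from the shared arms of Mir199a-2 are in no count, so its ratio to Mir214 does not compare the products of Dnm3os, which carries both hairpins. Mir214 had 268 counts per count of Mir199a-2 in replicate 1 and 130 in replicate 2. The ratio was 2.06-fold larger in replicate 1 (95% interval 1.61 to 2.62, adjusted p = 1.34e-08 in a two-sided Fisher's exact test, with 11 pairs in the adjustment). Against Mir199b, Mir214 had 138 counts per count in replicate 1 and 70.3 in replicate 2, a ratio 1.96-fold larger in replicate 1 (1.65 to 2.34, Fisher's exact test, adjusted p = 3.17e-13).

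Mir199b and Mir199a-2, which lie on different chromosomes, kept close to 1 ratio in reads that map to 1 place. Mir199b made up 66.0% of their summed counts in replicate 1 (exact 95% interval 61.1 to 70.7) and 64.9% in replicate 2 (59.8 to 69.8). The ratio between them differed 1.05-fold between the libraries, with an interval from 0.777 to 1.41 (Fisher's exact test, adjusted p = 0.819). As far as counting error goes, the counts are compatible with any change within that interval.

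The gap between the log2 ratios of Mir199a-2 and Mir214, 1.04, was set beside the gaps of all neighbouring microRNA genes on 1 strand within 10 kb, a description added after seeing the data. There were 113 such pairs with at least 10 counts in each gene and library. Their median gap was 0.51, the largest was 2.30, and 19 of them had a larger gap than Mir199a-2 and Mir214. Among the 87 pairs with at least 100 counts in each gene and library, the median was 0.49 and 16 had a larger gap.

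The other pairs fixed for comparison set Mir214 and Mir199b against genes known from other heart cells. Here too, intervals and p-values cover counting error alone. Mir208a, carried in the cardiac myosin gene Myh6 of heart muscle cells, had 69837 counts in replicate 1 and 34080 in replicate 2. Mir214 made up 34.0% and 33.0% of the sum with it, so that the ratio differed by 1.04-fold (1.02 to 1.07, Fisher's exact test, adjusted p = 0.000406). Of the 4 genes that Mir214 was set against outside its own family, this was the smallest difference. It does not extend to all heart muscle genes, since Mir499, carried in Myh7b and not among the fixed pairs, had 17027 counts in replicate 1 and 42393 in replicate 2.

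Mir214 was higher in replicate 1 relative to the vascular genes. Its ratio to Mir126a of endothelial cells (332605 and 413403 counts) was 2.65-fold larger in replicate 1 (95% interval 2.61 to 2.71). Its ratio to Mir143 of smooth muscle (293230 and 332468 counts) was 2.42-fold larger (2.38 to 2.47). Against Mir21a, a microRNA of activated fibroblasts (33690 and 109355 counts), it was 6.93-fold larger (6.78 to 7.09), the widest difference of the 11 pairs.

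Mir199b went the same way as Mir214 against the vascular genes and Mir21a, by smaller factors, and the other way against Mir208a. Its ratio to Mir143 was 1.23-fold larger in replicate 1 (1.03 to 1.47, Fisher's exact test, adjusted p = 0.0216) and its ratio to Mir126a 1.35-fold larger (1.13 to 1.61, adjusted p = 0.00103, exact). Against Mir208a its ratio was 0.531 of that in replicate 2 (0.445 to 0.633, adjusted p = 7.26e-12, exact). Against Mir21a it was 3.53-fold larger in replicate 1 (2.96 to 4.21, adjusted p = 1.67e-42, exact). With the column that joins both strands, Mir126a loses nearly all its reads, and its pair with Mir199b no longer passed (Fisher's exact test, adjusted p = 0.668).

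**Figure D5:**
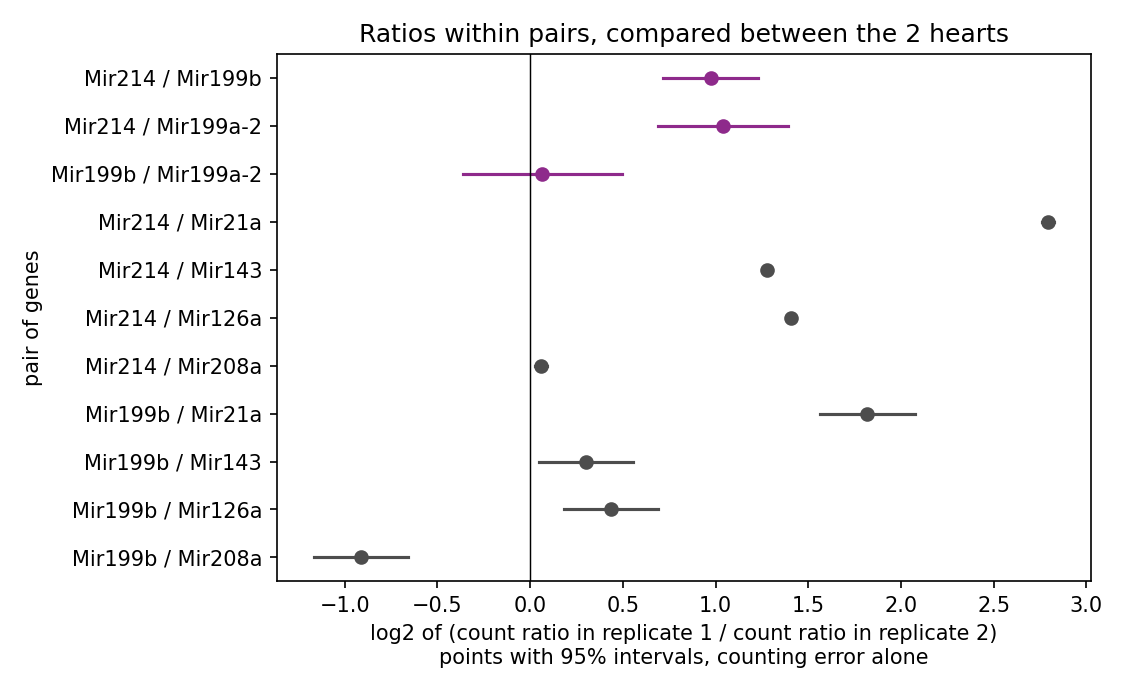
For each of the 11 pairs, the log2 of the count ratio in replicate 1 over that in replicate 2, with 95% intervals of counting error. The ratios of Mir214 to Mir199b and to Mir199a-2 lie near 1 on the log2 scale (0.97 and 1.04), and that of Mir199b to Mir199a-2 lies at 0.07 with an interval that includes 0.

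Other microRNA genes known from fibroblasts or mesenchyme, though not particular to them, were taken as a list of 17, all measured and tested. The call was made for 5, all with the higher value in replicate 2, and not for 12, against 11.2% called over all genes and 7.33% in that direction. The list was chosen with earlier results of these data known, and it holds close neighbours such as Mir23a and Mir27a. Its counts beside those of all genes are therefore a description and no test. With TMM scaling, 2 of the 17 had a log2 ratio above 0, against 248 of the 491 genes tested. With scaling by total counts it was 7 of the 17, against 329 of the 491. The median TMM-scaled log2 ratio of the list was −0.43, against 0.01 over all genes tested. The values of Mir199b (−0.36) and Mir199a-2 (−0.43) lay near that median and the value of Mir214 (0.61) lay above the highest of the list, Mir23a (0.33).

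The 5 called genes were Mir140, known from cartilage (log2 ratio −2.38, 1318 and 5578 CPM), Mir21a (−2.18, 5250 and 19313 CPM), Mir29c, known for repressing collagens (−1.40, 23.2 and 49.8 CPM), Mir22 (−1.28, 9851 and 19384 CPM) and Mir27b (−1.15, 3042 and 5455 CPM). Under scaling by total counts 3 of them, Mir140, Mir21a and Mir29c, were still past 2-fold, and the list's median was −0.12 against 0.31 over all genes. EdgeR's exact test called 0 of the 17, against 0.815% of all genes tested. Of the list, 11 genes share a 20-nt stretch with another microRNA gene, so their multi-mapped reads are missing too.

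By level, the other list members ran from Mir23b (42469 and 39556 CPM) and Mir23a (34114 and 22004 CPM) down to Mir29b-1 (9.97 and 7.42 CPM) and Mir29b-2 (8 and 14 counts). The place of Mir214 among them differed between the libraries. In replicate 1 its 5595 CPM lay above Mir21a, Mir27b and Mir140, and in replicate 2 its 2969 CPM lay below all 3. Mir199b lay above Mir29c in replicate 1 and below it in replicate 2, and Mir199a-2 lay below Mir29c in both.

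Markers of other cells moved between the libraries in both directions, and their part in the differences of the members was not tested. The heart muscle genes Mir208a, Mir208b and Mir499 were all present and summed to 20993 CPM in replicate 1 and 19146 in replicate 2. That sum joins opposite differences, with a log2 ratio of 0.55 for Mir208a, 0.10 for Mir208b and −1.80 for Mir499, of which Mir499 was called. The endothelial gene Mir126a held 51829 and 73011 CPM and the smooth muscle genes 47055 and 60331 CPM. The 2 erythroid genes summed to 489 and 126 CPM, the 4 leukocyte genes to 1301 and 872 CPM, and the 5 epithelial genes to 508 and 411 CPM. Of the erythroid genes, Mir451a (log2 ratio 1.67) and Mir144 (1.59) were called. Within the leukocyte genes, Mir142 (log2 ratio 1.15) and Mir223 (−1.14) were called in opposite directions. The epithelial log2 ratios were 0.26 for Mir200c, 0.35 for Mir141, −0.33 for Mir200a, −0.73 for Mir429 and −1.42 for Mir200b. Of these, Mir200b was called. The skeletal muscle gene Mir206 held 718 and 58.5 CPM and was called (log2 ratio 3.31). Of the markers called, Mir206 alone was also called by edgeR's exact test. The liver gene Mir122 held 105 and 86.2 CPM, and the 3 neuronal Mir124a genes were at 0 in both libraries.

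Because 2 libraries cannot give a correlation, likeness was measured as distance between pairs of log2(CPM + 1) values. Nearest to Mir214 were Mir423 (4940 and 3352 CPM, distance 0.25), Mir127 of the imprinted Dlk1-Dio3 region (6733 and 3717 CPM, 0.42) and Mir107 (4690 and 3772 CPM, 0.43). Nearest to Mir199b were Mir378c (41.6 and 44.9 CPM, 0.09), Mir504 (45.3 and 37.1 CPM, 0.24) and Mir1249 (45.3 and 49.3 CPM, 0.27). Nearest to Mir199a-2 were Mir547 (141 and 142 counts, 0.15), Mir702 (148 and 115 counts, 0.21) and Mir183 (117 and 119 counts, 0.22). Mir127 had a log2 ratio of 0.55, against 0.61 for Mir214. The distance takes in both libraries, so it picks genes with a similar level and a similar gap between the hearts.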

How the data were processed

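For each library the authors deposited a table of unnormalized counts over microRNA genes, on mm10 with GENCODE M21, per the deposited descriptions. How reads were trimmed, aligned and counted is not given in the sources used here. A table has 3 count columns (column 2 both strands, column 3 the gene's own strand, column 4 the opposite strand, read from the layout of the values) and 4 summary entries, which stayed out of totals and tests. Column 3 was used. It held 6417302 counts in replicate 1 (44.4% of 14450527 reads) and 5662222 in replicate 2 (42.0% of 13495259). Multi-mapped reads made up 39.6% and 43.2% of the reads.

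Genes with at least 10 counts in the sum were tested between libraries by an exact binomial test, two-sided and conditional on the sum, with TMM-scaled sizes (factors 1.11 and 0.900). Log2 ratios carry 0.5 extra per count. One library a side leaves no residual degrees of freedom for edgeR's quasi-likelihood test. On simulated counts with counting noise alone, 196 of 200 genes changed 4-fold and 0 of 292 unchanged genes were called, which does not carry over to real libraries. EdgeR's common biological coefficient of variation was 0.351. R 4.3.3, edgeR 4.0.16, DESeq2 1.42.0, Python 3.11.15, scipy 1.17.1, pandas 2.3.3, numpy 2.4.6 and matplotlib 3.10.9 were used. Hairpins came from the GENCODE M21 transcripts and equal those of RefSeq for all 4 members.

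Genes named are the 4 members, microRNA genes within 10 kb of them, the 3 genes nearest to each in level, and the fixed list, markers and pairs. The members and lists were chosen with earlier results of these data known. Variants of the CAST parent were not examined.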

Additional observations from a re-analysis of the deposited data

How the results depend on the processing

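With multi-mapped reads added to the total, the mean level was 2210 CPM for Mir214, 21.1 for Mir199b and 11.1 for Mir199a-2, and the 4 genes held 0.224% of the total. With the total taken over genes without a shared 20-nt stretch, the levels were 6168, 59.6 and 31.5 CPM. With the column that joins both strands, Mir199b stood at 51.7 and Mir199a-2 at 27.3 CPM, since that column has smaller totals. The order of the genes could not change in any of these. Each divides all 4 genes of a library by the same total, and the joined column holds the same counts for them. Calls over all genes numbered from 52 to 61 under other scalings, the joined column and no filter, and 4 with edgeR's exact test. Mir214, Mir199b and Mir199a-2 were not called under any of these fits, and no log2 ratio of theirs changed sign. Their values without the filter were added after seeing the data. Under the 4 alternative fits of the exact binomial test, the adjusted p ran from 0.0169 to 0.735 for Mir199b and from 0.0441 to 0.602 for Mir199a-2, and it was 1 for each tested member with edgeR. Leaving out a replicate gives the value of the other library, from 2969 to 5595 CPM for Mir214. With stretches of 18 or 22 nt, the own stretches numbered 32 and 36 for Mir199a-1, 72 and 77 for Mir199a-2, 80 and 81 for Mir199b and 93 and 89 for Mir214. The planned test of strand shares was not run, as the opposite strand had 0 counts in both libraries. No paired analysis was possible because both libraries belong to 1 group.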

Other observations

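Several other neighbouring microRNA genes had log2 ratios at least as far apart between the 2 hearts as Mir199a-2 and Mir214 (1.04), and these were picked after their values were seen. Mir296 (0.60) and Mir298 (−1.70) had the widest gap, 2.30. Mir497 (0.19) and Mir195a (−1.66), 242 bp apart on chromosome 11, had a gap of 1.85, and Mir15a (0.60) and Mir16-1 (−1.16) one of 1.76. Mir23a (0.33) and Mir27a (−0.73), 80 bp apart, had a gap of 1.06.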
